A study of Mus musculus with 36 samples.

Results

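The genes described here are 32 mouse genes of acid secretion, chosen by symbol from the 38942 genes of the deposited table: the subunits of the vacuolar proton pump (V-ATPase), the chloride and proton exchangers that work beside it, and the traffic proteins that bring it to the membrane. They comprise 4 a subunits and 6 other subunits of the membrane sector V0, 11 subunits of the cytosolic sector V1, 2 accessory subunits, 5 genes for chloride-proton exchangers and their partner Ostm1, 2 other exchangers and 2 genes of ruffled border traffic.

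An osteoclast dissolves bone mineral by pumping protons across its folded ruffled border into a sealed space on the bone surface. In the V-ATPase, ATP hydrolysis in V1 turns a ring in V0 that carries the protons. Clcn7 and Ostm1 carry the chloride that balances the charge, Slc4a2 exchanges bicarbonate for chloride at the opposite side of the cell, and carbonic anhydrase 2 (Car2) supplies the protons. Loss of TCIRG1, CLCN7, OSTM1, SNX10, PLEKHM1 or CA2 causes osteopetrosis, dense bone with failed resorption, in humans.

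The monocytes came from mouse bone marrow and had been sorted on Ly6C, a monocyte surface protein, into high (Ly6Chi), intermediate (Ly6Cint) and negative (Ly6Cneg) cells, and their RNA was sequenced; the mice were labelled as a conditional knockout of Irf8 (cKO) or as wild type (WT). Irf8 is a transcription factor of monocyte development and a repressor of osteoclast formation. The 12 groups were cKO and WT osteoclast cultures (OC), kept for 4 days in MCSF at 20 ng/ml with RANKL at 40 ng/ml, and cKO and WT bone marrow monocytes in MCSF at day 0 (BMM), each from the 3 subsets. All groups had received MCSF, at a dose given only for the cultures. Each group had 3 libraries, except WT OC Ly6Cneg and WT BMM Ly6Cneg with 2 each, 34 libraries in all. For the Cre driver, the deleted exons and the ages of the mice, nothing is given in the sources used here.

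Values are normalised expression on a log2 scale and differences are on that scale; 3.90 is the lowest value in the table and stands for no reads. Library depth spanned 2.47-fold. Relative depth ran from 0.786 to 0.87 in cKO and from 1.22 to 1.42 in WT OC Ly6Cint. In OC Ly6Cneg it ran from 0.888 to 1.07 in cKO and from 1.31 to 1.38 in WT. In the other pairs of groups the cKO and WT ranges overlapped. The part of depth in the genotype differences was not tested. Total Irf8 RNA was higher in cKO than in WT libraries in all 6 pairs of groups, for example 14.23 ± 0.10 in cKO BMM Ly6Chi and 13.55 ± 0.05 in WT BMM Ly6Chi (SD, n = 3 each). This goes against the label, but a gene total cannot check the loss of part of a gene, so cKO and WT below are the labels' genotypes and every direction between them rests on those labels. Ly6c2, which encodes part of the sorted antigen, was lower in WT BMM Ly6Chi (mean 9.89) than in WT BMM Ly6Cneg (12.26), against the names of the gates. Group means of Xist ran from 12.24 to 13.66 in cKO and from 14.01 to 15.15 in WT groups, and those of the Y-linked Ddx3y from 10.53 to 10.77 in cKO and from 5.23 to 6.12 in WT groups. The part of this sex difference in the genotype comparisons was not tested; Atp6ap1, Atp6ap2 and Clcn5 are X-linked.

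The question of the culture comparison was which acid secretion genes changed between day 0 monocytes and osteoclast cultures. Without a group cultured for 4 days in MCSF alone, RANKL and time in culture cannot be told apart in these differences. Most of the pump and its exchangers were higher in OC. In cKO cells, 26 of the 32 genes were higher and 2 lower in Ly6Chi cultures, 26 higher and 3 lower in Ly6Cint cultures, and 28 higher and 1 lower in Ly6Cneg cultures (limma, adjusted p under 0.05). In WT cells, 23 were higher and 6 lower in Ly6Chi cultures, 22 higher and 5 lower in Ly6Cint cultures, and 15 higher and 3 lower in Ly6Cneg cultures. Of all 38873 genes tested, 41.8%, 48.7% and 42.6% were called in either direction in the cKO comparisons, of which 15.5%, 16.4% and 14.5% of all genes were higher, in the order Ly6Chi, Ly6Cint and Ly6Cneg. In the WT comparisons 34.1%, 28.4% and 12.2% of all genes were called and 13.7%, 13.1% and 6.55% were higher, in the same order. Among the 8658 genes that averaged at least 9, where most of the 32 lie, 75.4%, 77.8% and 70.2% were called in cKO and 69.8%, 68.1% and 33.4% in WT cells. These last shares count both directions, and the share called higher among such genes was not computed.

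The median difference of the 32 genes was 1.23 in cKO and 1.32 in WT Ly6Chi cells, 1.52 and 1.11 in Ly6Cint cells, and 0.94 and 0.38 in Ly6Cneg cells, beside -0.27 and -0.28, -0.34 and -0.06, and -0.36 and -0.03 for all genes tested in the same comparisons. A group of 15 genes was called higher in all 6 comparisons: Slc9b2, Atp6v0d2, Slc4a2, Snx10, Clcn7, Atp6v1b2, Atp6v1d, Atp6v1a, Atp6v1c1, Atp6v1h, Tcirg1, Atp6v1e1, Atp6ap2, Atp6v0b and Atp6ap1. Another 6 genes were called in both directions, Atp6v0a4 and Atp6v1c2 were called only as lower, and Atp6v1b1 was called in none. The other 8 were called only as higher, in some of the comparisons.

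**Figure D1:**
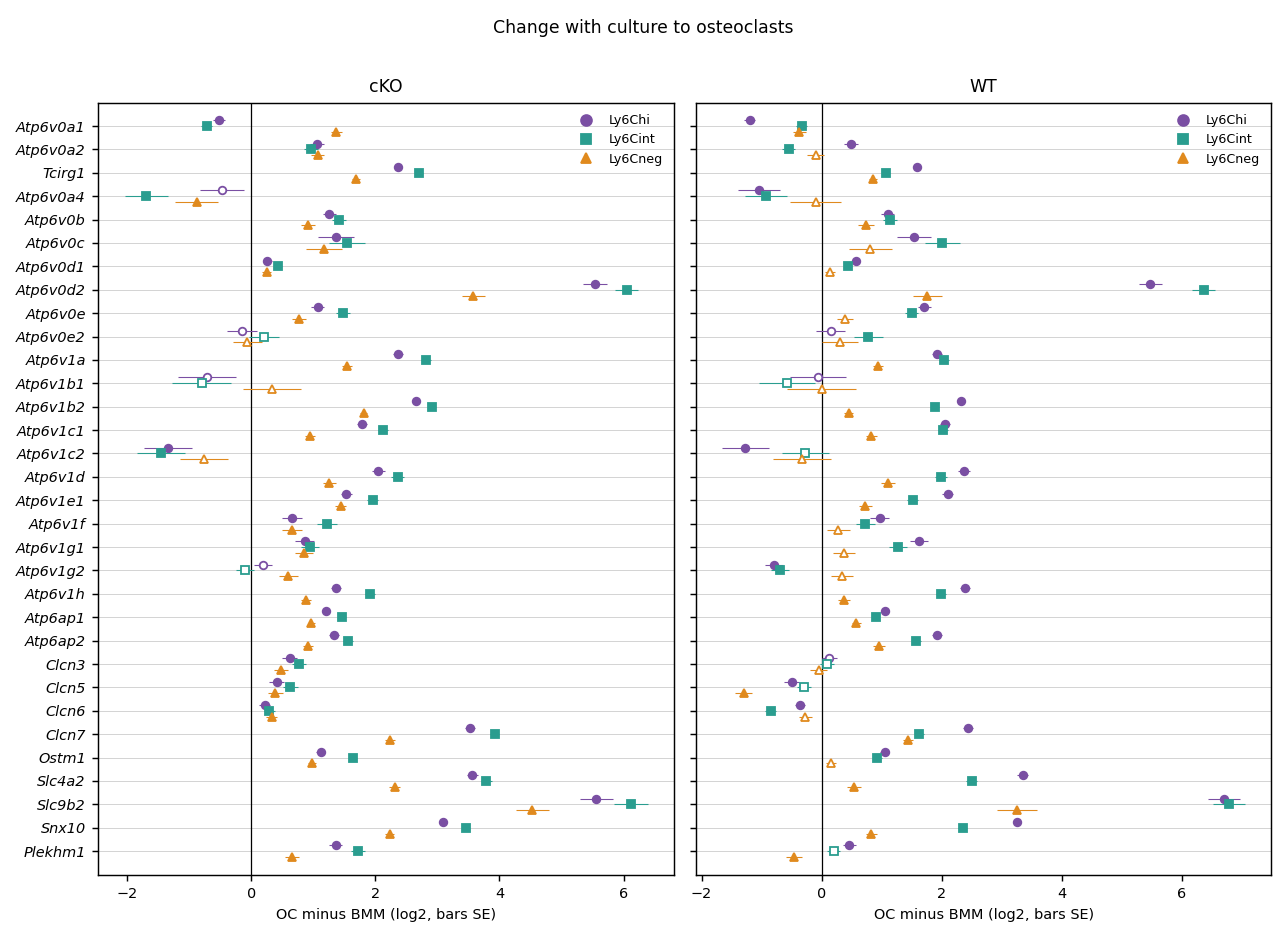
Difference in log2 value, OC minus BMM, with its standard error, for each of the 32 genes (rows), in cKO cells (left panel) and WT cells (right panel); colours and markers give the Ly6C subset, filled points passed the adjusted p threshold of 0.05 and open points did not. Slc9b2 and Atp6v0d2 lie farthest to the right, up to 6.79 in WT Ly6Cint cells, and the WT Ly6Cneg points lie nearest to 0 for most genes.

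All 8 osteoclast markers (among them Ctsk, Acp5 and Calcr) were also higher in OC in each of the 6 comparisons. Their mean value per library was 15.41 to 15.51 in cKO OC Ly6Chi and 9.65 to 10.21 in cKO BMM Ly6Chi, and 11.94 to 12.12 in WT OC Ly6Cneg and 9.05 to 9.27 in WT BMM Ly6Cneg. In bulk samples, fewer cells of a type and less RNA per cell cannot be told apart. All 6 neutrophil markers were lower in OC in 5 of the 6 comparisons, and 4 of the 6 in the cKO Ly6Cneg one; the part of that lineage in the differences was not tested.

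Among the V0 subunits Atp6v0d2 changed most, and Tcirg1 was higher in all 6 comparisons. Atp6v0d2 encodes the d2 subunit, which ties the ring to the V1 shaft and is known in mice for a role in osteoclast fusion. In cKO OC, Atp6v0d2 was at 15.35, 15.68 and 15.60 from Ly6Chi cells, at 16.02, 16.06 and 16.06 from Ly6Cint cells and at 14.58, 14.68 and 14.76 from Ly6Cneg cells. Values of Atp6v0d2 in cKO BMM were 9.86, 10.28 and 9.88 in Ly6Chi, 10.32, 9.57 and 10.10 in Ly6Cint and 11.03, 11.68 and 10.57 in Ly6Cneg cells. The OC and BMM libraries did not overlap in any subset. In WT OC, Atp6v0d2 was at 15.73, 15.59 and 15.52 from Ly6Chi cells, at 15.33, 15.37 and 15.37 from Ly6Cint cells and at 13.49 and 13.56 from Ly6Cneg cells. Values of Atp6v0d2 in WT BMM were 9.90, 10.41 and 10.09 in Ly6Chi, 8.96, 9.02 and 8.98 in Ly6Cint and 11.72 and 11.80 in Ly6Cneg cells. The smallest gap lay in WT Ly6Cneg cells, where BMM were highest and OC lowest. OC minus BMM came to 5.54 ± 0.19 in cKO and 5.48 ± 0.19 in WT Ly6Chi cells, 6.05 ± 0.19 and 6.37 ± 0.19 in Ly6Cint cells, and 3.58 ± 0.19 and 1.76 ± 0.24 in Ly6Cneg cells (difference ± SE). The largest of these 6 adjusted p-values was 3.91e-06.

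Its paralog Atp6v0d1, the d1 subunit found in most cells, moved much less. In cKO OC, Atp6v0d1 was at 13.27, 13.33 and 13.29 from Ly6Chi cells, at 13.31, 13.37 and 13.49 from Ly6Cint cells and at 12.86, 12.96 and 12.94 from Ly6Cneg cells. Values of Atp6v0d1 in cKO BMM were 13, 12.99 and 13.10 in Ly6Chi, 12.93, 12.96 and 12.99 in Ly6Cint and 12.78, 12.68 and 12.55 in Ly6Cneg cells. The cKO OC libraries lay just above the cKO BMM libraries of the same subset. In WT OC, Atp6v0d1 was at 13.38, 13.42 and 13.34 from Ly6Chi cells, at 13.11, 13.16 and 13.18 from Ly6Cint cells and at 12.81 and 12.76 from Ly6Cneg cells. Values of Atp6v0d1 in WT BMM were 12.69, 12.89 and 12.86 in Ly6Chi, 12.65, 12.80 and 12.70 in Ly6Cint and 12.66 and 12.63 in Ly6Cneg cells. All libraries lay between 12.55 and 13.49. The difference was largest in WT Ly6Chi cells, at 0.57 ± 0.07 (adjusted p 5.37e-09), and in WT Ly6Cneg cells it was 0.14 ± 0.08 (adjusted p 0.37).

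Tcirg1 encodes the a3 subunit, the a subunit of the osteoclast ruffled border. In cKO OC, Tcirg1 was at 16.39, 16.46 and 16.43 from Ly6Chi cells, at 16.70, 16.66 and 16.69 from Ly6Cint cells and at 15.79, 15.82 and 15.96 from Ly6Cneg cells. Values of Tcirg1 in cKO BMM were 14.01, 14.03 and 14.12 in Ly6Chi, 13.96, 13.96 and 14.01 in Ly6Cint and 14.11, 14.22 and 14.19 in Ly6Cneg cells. In cKO cells every OC library was above every BMM library. In WT OC, Tcirg1 was at 16.48, 16.45 and 16.54 from Ly6Chi cells, at 16.08, 16.22 and 16.13 from Ly6Cint cells and at 15.14 and 15.12 from Ly6Cneg cells. Values of Tcirg1 in WT BMM were 14.86, 14.91 and 14.93 in Ly6Chi, 15, 15.05 and 15.13 in Ly6Cint and 14.20 and 14.34 in Ly6Cneg cells. OC libraries lay above BMM libraries of the same genotype and subset throughout, with BMM already high at 13.96 or more. Differences were 2.37 ± 0.06 and 1.59 ± 0.06 in cKO and WT Ly6Chi cells, 2.71 ± 0.06 and 1.08 ± 0.06 in Ly6Cint cells, and 1.69 ± 0.06 and 0.86 ± 0.07 in Ly6Cneg cells, with adjusted p of at most 3.23e-12.

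The other a subunits went different ways. Atp6v0a1, the a1 subunit of neurons and many other cells, was lower in OC in 5 of the 6 comparisons, by up to -1.20 ± 0.09 in WT Ly6Chi cells, and higher by 1.37 ± 0.09 in cKO Ly6Cneg cells. There it stood at 13.93, 13.86 and 13.91 in cKO OC and at 12.47, 12.37 and 12.75 in cKO BMM. The WT Ly6Cneg call for Atp6v0a1 (-0.37) was lost without WT BMM Ly6Cneg replicate 2 or without either WT OC Ly6Cneg library, with adjusted p up to 0.19. Atp6v0a2, the a2 subunit of Golgi and endosomes, was higher in OC in all 3 cKO comparisons (0.96 to 1.07) and in WT Ly6Chi cells (0.49), and lower in WT Ly6Cint cells (-0.55). Atp6v0a4, the a4 subunit of kidney intercalated cells, was at or near the table's minimum, with 10 of 34 libraries at 3.90, among them all 6 OC Ly6Cint libraries; its highest value was 6.79.

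The proteolipids of the ring were among the most abundant. Atp6v0c, the main ring subunit, was higher in OC in 5 of the 6 comparisons, by 1.18 to 2.01. The 2.01 was in WT Ly6Cint cells and leaned on a single low library. WT BMM Ly6Cint replicate 2 was at 13.88, beside 15.59 and 15.67 in replicates 1 and 3. Values of Atp6v0c are also uncertain because the annotation holds 2 pseudogene copies. Atp6v0b, the other ring subunit, was higher in all 6, by 0.74 to 1.41. Atp6v0e, a small V0 subunit, was higher in 5, by 0.77 to 1.71. Its paralog Atp6v0e2 was low in all groups, between 3.90 and 7.73, and was called in WT Ly6Cint cells only (0.78 ± 0.24, adjusted p 0.0114). That call rested on WT BMM Ly6Cint replicate 3, which was at the minimum; without it the difference was 0.23. It was also lost without WT OC Ly6Cint replicate 1.

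**Figure D2:**
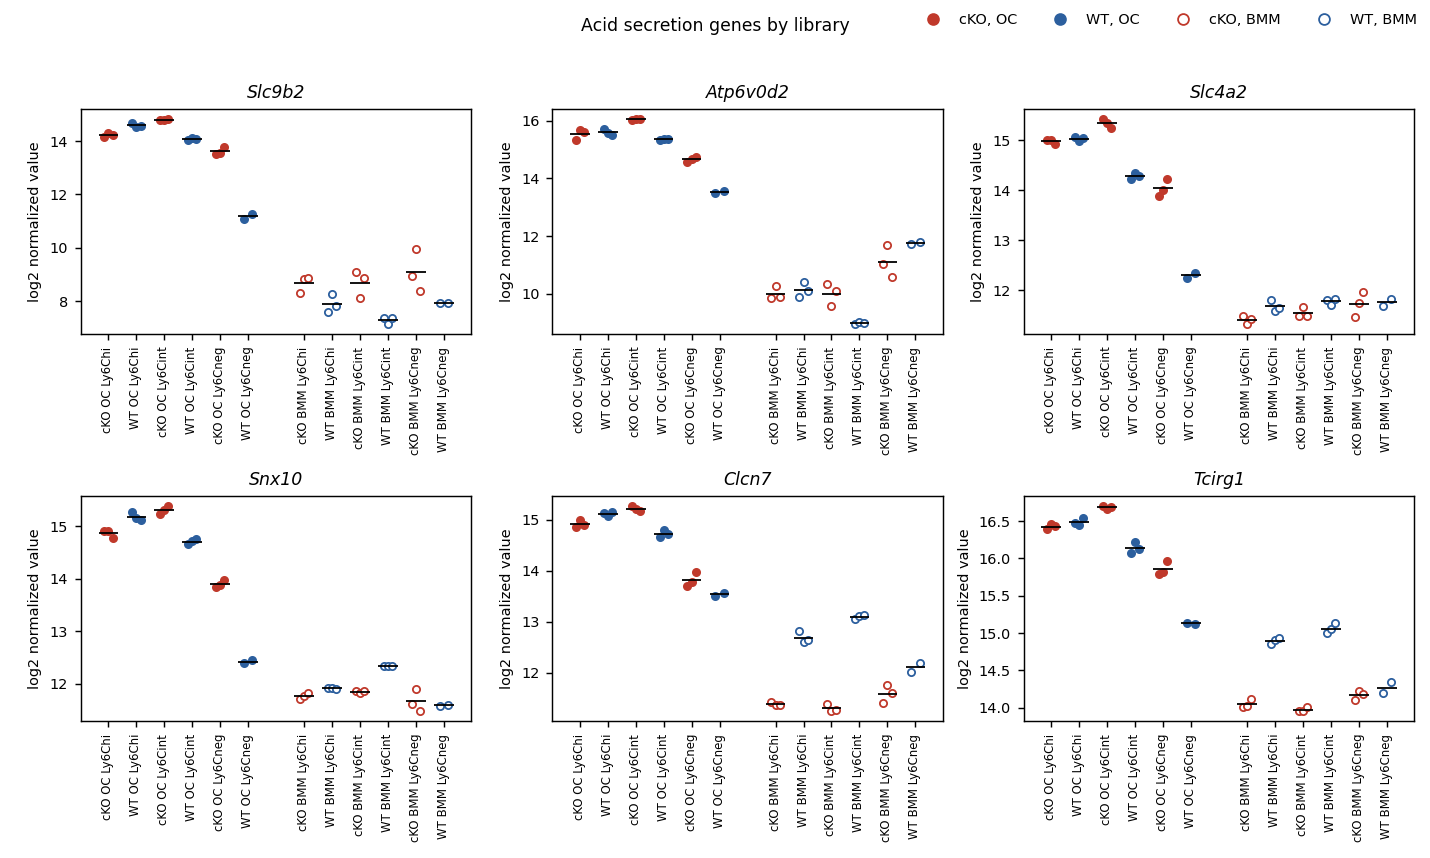
Log2 value in every library (points) and group mean (black bars) of Slc9b2, Atp6v0d2, Slc4a2, Snx10, Clcn7 and Tcirg1 in the 12 groups, each panel with its own scale. In each panel the OC libraries lie above the BMM libraries of the same genotype and subset, and the WT OC Ly6Cneg libraries, such as 11.09 and 11.28 for Slc9b2, lie lowest among the OC.

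Of the 11 V1 subunits, 8 were higher in OC in cKO Ly6Chi, WT Ly6Chi, cKO Ly6Cint and WT Ly6Cint cells, 9 in cKO Ly6Cneg and 6 in WT Ly6Cneg cells. Atp6v1b2 and Atp6v1a encode the B2 and A subunits, which form the head that binds and splits ATP. In cKO OC, Atp6v1b2 was at 17.04, 16.86 and 16.78 from Ly6Chi cells, at 17.12, 17.12 and 17.18 from Ly6Cint cells and at 15.97, 15.99 and 16.09 from Ly6Cneg cells. Values of Atp6v1b2 in cKO BMM were 14.35, 14.23 and 14.14 in Ly6Chi, 14.19, 14.22 and 14.27 in Ly6Cint and 14.16, 14.25 and 14.22 in Ly6Cneg cells. The cKO OC and cKO BMM libraries did not overlap, and OC from Ly6Cneg cells were lowest among the OC. In WT OC, Atp6v1b2 was at 16.94, 16.89 and 16.83 from Ly6Chi cells, at 16.50, 16.50 and 16.57 from Ly6Cint cells and at 14.75 and 14.81 from Ly6Cneg cells. Values of Atp6v1b2 in WT BMM were 14.51, 14.53 and 14.64 in Ly6Chi, 14.59, 14.69 and 14.63 in Ly6Cint and 14.31 and 14.34 in Ly6Cneg cells. Cells of each subset separated by stage without overlap, and the WT Ly6Cneg pair stood closest. The difference was 2.65 ± 0.06 in cKO and 2.33 ± 0.06 in WT Ly6Chi cells, 2.91 ± 0.06 and 1.89 ± 0.06 in Ly6Cint cells, and 1.81 ± 0.06 and 0.45 ± 0.08 in Ly6Cneg cells, the last with adjusted p 2.53e-05.

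For Atp6v1a, too, the differences were smallest in WT Ly6Cneg cells and largest in cKO Ly6Cint cells. In cKO OC, Atp6v1a was at 16.40, 16.36 and 16.32 from Ly6Chi cells, at 16.54, 16.50 and 16.45 from Ly6Cint cells and at 15.49, 15.50 and 15.57 from Ly6Cneg cells. Values of Atp6v1a in cKO BMM were 14.12, 13.95 and 13.89 in Ly6Chi, 13.61, 13.80 and 13.62 in Ly6Cint and 13.84, 13.93 and 14.17 in Ly6Cneg cells. All cKO OC libraries were above all cKO BMM libraries. In WT OC, Atp6v1a was at 16.35, 16.21 and 16.17 from Ly6Chi cells, at 15.95, 16 and 15.93 from Ly6Cint cells and at 14.95 and 14.98 from Ly6Cneg cells. Values of Atp6v1a in WT BMM were 14.49, 14.21 and 14.28 in Ly6Chi, 13.93, 13.90 and 13.92 in Ly6Cint and 13.96 and 14.11 in Ly6Cneg cells. OC were higher by 2.37 ± 0.08 and 1.92 ± 0.08 in cKO and WT Ly6Chi cells, 2.82 ± 0.08 and 2.04 ± 0.08 in Ly6Cint cells, and 1.54 ± 0.08 and 0.94 ± 0.09 in Ly6Cneg cells. The adjusted p-values were at most 3.66e-10.

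Atp6v1d forms part of the central shaft, and Atp6v1c1 is the C1 subunit of the stalk that joins V1 to V0. In cKO OC, Atp6v1d was at 14.38, 14.13 and 14.01 from Ly6Chi cells, at 14.44, 14.52 and 14.64 from Ly6Cint cells and at 12.91, 13.03 and 13.01 from Ly6Cneg cells. Values of Atp6v1d in cKO BMM were 11.88, 12.14 and 12.33 in Ly6Chi, 12.25, 12.14 and 12.14 in Ly6Cint and 11.81, 11.86 and 11.51 in Ly6Cneg cells. The cKO libraries separated by stage, with OC from Ly6Cneg cells lowest among the OC. In WT OC, Atp6v1d was at 14.50, 14.56 and 14.32 from Ly6Chi cells, at 14.06, 14.04 and 14.23 from Ly6Cint cells and at 12.77 and 12.76 from Ly6Cneg cells. Values of Atp6v1d in WT BMM were 11.95, 12.14 and 12.15 in Ly6Chi, 12.06, 12.15 and 12.15 in Ly6Cint and 11.65 and 11.66 in Ly6Cneg cells. OC and BMM of Atp6v1d did not overlap in any subset, with differences of 1.11 ± 0.12 in WT Ly6Cneg to 2.38 ± 0.10 in WT Ly6Chi cells. In cKO OC, Atp6v1c1 was at 15.22, 14.92 and 14.86 from Ly6Chi cells, at 15.02, 15.06 and 15.10 from Ly6Cint cells and at 14.18, 14.15 and 14.13 from Ly6Cneg cells. Values of Atp6v1c1 in cKO BMM were 13.15, 13.35 and 13.16 in Ly6Chi, 12.91, 12.97 and 12.92 in Ly6Cint and 13.24, 13.24 and 13.13 in Ly6Cneg cells. In cKO cells OC were again above BMM in each subset. In WT OC, Atp6v1c1 was at 14.99, 15.01 and 14.76 from Ly6Chi cells, at 14.50, 14.42 and 14.54 from Ly6Cint cells and at 13.51 and 13.55 from Ly6Cneg cells. Values of Atp6v1c1 in WT BMM were 12.75, 12.89 and 12.93 in Ly6Chi, 12.42, 12.53 and 12.43 in Ly6Cint and 12.68 and 12.71 in Ly6Cneg cells. Atp6v1c1 separated in the same way, and its differences ran from 0.83 ± 0.09 in WT Ly6Cneg to 2.13 ± 0.08 in cKO Ly6Cint cells.

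The shaft and stalk subunits Atp6v1e1, Atp6v1f, Atp6v1g1 and Atp6v1h also rose. Atp6v1e1 was higher in OC in all 6 comparisons (0.73 to 2.10), as was Atp6v1h (0.38 to 2.39), whose WT Ly6Cneg call was lost without WT BMM Ly6Cneg replicate 2 or without either WT OC Ly6Cneg library (adjusted p up to 0.112). Atp6v1f and Atp6v1g1 were higher in 5 comparisons each, by 0.66 to 1.22 and by 0.85 to 1.63. The tissue-restricted isoforms did not rise with them. Atp6v1b1, the kidney and inner ear B1 subunit, was at the minimum in 15 of 34 libraries and never above 5.93. Atp6v1c2 was at the minimum in 9 and never above 6.72. Atp6v1g2, known from neurons, lay between 6.89 and 8.71; it was lower in OC in WT Ly6Chi (-0.79) and WT Ly6Cint cells (-0.69) and higher in cKO Ly6Cneg cells (0.60).

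Both accessory subunits, Atp6ap1 and the prorenin receptor Atp6ap2, were higher in OC in all 6 comparisons, by 0.58 to 1.46 and by 0.91 to 1.92.

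Clcn7 encodes the chloride-proton exchanger of lysosomes and the ruffled border. In cKO OC, Clcn7 was at 14.86, 14.99 and 14.90 from Ly6Chi cells, at 15.27, 15.21 and 15.17 from Ly6Cint cells and at 13.71, 13.78 and 13.97 from Ly6Cneg cells. Values of Clcn7 in cKO BMM were 11.43, 11.37 and 11.37 in Ly6Chi, 11.38, 11.25 and 11.26 in Ly6Cint and 11.41, 11.76 and 11.60 in Ly6Cneg cells. All cKO OC libraries were above all cKO BMM libraries. In WT OC, Clcn7 was at 15.14, 15.08 and 15.15 from Ly6Chi cells, at 14.67, 14.80 and 14.72 from Ly6Cint cells and at 13.51 and 13.57 from Ly6Cneg cells. Values of Clcn7 in WT BMM were 12.81, 12.60 and 12.65 in Ly6Chi, 13.05, 13.11 and 13.14 in Ly6Cint and 12.02 and 12.19 in Ly6Cneg cells. WT BMM stood above cKO BMM in every subset. OC exceeded BMM by 3.53 ± 0.08 and 2.44 ± 0.08 in cKO and WT Ly6Chi cells, 3.92 ± 0.08 and 1.63 ± 0.08 in Ly6Cint cells, and 2.23 ± 0.08 and 1.44 ± 0.09 in Ly6Cneg cells, with adjusted p of at most 5.74e-15. Ostm1, the partner that stabilises Clcn7, was higher in OC by 0.93 to 1.64 in 5 comparisons, while WT Ly6Cneg cells differed by 0.16 without a call. The other exchangers, Clcn3 and Clcn5 of endosomes and Clcn6 of late endosomes, differed by genotype: each was higher in OC in all 3 cKO comparisons, by 0.22 to 0.77, and none of the 3 was called higher in a WT comparison. Of these small cKO calls, that of Clcn6 in Ly6Chi cells (0.22) was lost without any of 5 of the 6 libraries, and those of Clcn6 in Ly6Cint and of Clcn5 in Ly6Chi and Ly6Cneg cells without 1 or 2 libraries. Clcn5 was lower in WT OC Ly6Cneg than in WT BMM Ly6Cneg (-1.30), and Clcn6 was lower in WT OC Ly6Cint than in WT BMM Ly6Cint (-0.85).

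Slc9b2, a sodium-proton exchanger known to be induced by RANKL in osteoclasts, had the largest difference of the 32 genes in all 6 comparisons. In cKO OC, Slc9b2 was at 14.14, 14.30 and 14.22 from Ly6Chi cells, at 14.79, 14.80 and 14.83 from Ly6Cint cells and at 13.53, 13.56 and 13.80 from Ly6Cneg cells. Values of Slc9b2 in cKO BMM were 8.30, 8.84 and 8.85 in Ly6Chi, 9.08, 8.11 and 8.88 in Ly6Cint and 8.95, 9.96 and 8.38 in Ly6Cneg cells. The cKO OC libraries stood far above the cKO BMM libraries, among which a single Ly6Cneg library was highest. In WT OC, Slc9b2 was at 14.68, 14.54 and 14.58 from Ly6Chi cells, at 14.03, 14.13 and 14.09 from Ly6Cint cells and at 11.09 and 11.28 from Ly6Cneg cells. Values of Slc9b2 in WT BMM were 7.58, 8.28 and 7.80 in Ly6Chi, 7.35, 7.15 and 7.38 in Ly6Cint and 7.91 and 7.94 in Ly6Cneg cells. OC and BMM libraries of the same genotype and subset were far apart, also in WT Ly6Cneg cells. OC minus BMM was 5.56 ± 0.27 and 6.71 ± 0.27 in cKO and WT Ly6Chi cells, 6.12 ± 0.27 and 6.79 ± 0.27 in Ly6Cint cells, and 4.53 ± 0.27 and 3.26 ± 0.33 in Ly6Cneg cells. These were called with adjusted p of at most 4.96e-08.

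Slc4a2 is the bicarbonate-chloride exchanger of the basolateral membrane. In cKO OC, Slc4a2 was at 15.01, 15 and 14.93 from Ly6Chi cells, at 15.42, 15.34 and 15.25 from Ly6Cint cells and at 13.88, 14.01 and 14.23 from Ly6Cneg cells. Values of Slc4a2 in cKO BMM were 11.48, 11.33 and 11.43 in Ly6Chi, 11.48, 11.67 and 11.49 in Ly6Cint and 11.47, 11.75 and 11.97 in Ly6Cneg cells. Every cKO OC library was above every cKO BMM library. In WT OC, Slc4a2 was at 15.06, 14.98 and 15.04 from Ly6Chi cells, at 14.23, 14.34 and 14.29 from Ly6Cint cells and at 12.25 and 12.34 from Ly6Cneg cells. Values of Slc4a2 in WT BMM were 11.80, 11.58 and 11.65 in Ly6Chi, 11.81, 11.71 and 11.83 in Ly6Cint and 11.68 and 11.83 in Ly6Cneg cells. BMM values were close together in all groups, between 11.33 and 11.97, while OC spread from 12.25 to 15.42. Its differences were 3.56 ± 0.09 and 3.35 ± 0.09 in cKO and WT Ly6Chi cells, 3.79 ± 0.09 and 2.50 ± 0.09 in Ly6Cint cells, and 2.31 ± 0.09 and 0.54 ± 0.11 in Ly6Cneg cells, the last with adjusted p 0.000345. The exons of Slc4a2 overlap those of Fastk on the opposite strand over 13.7% of their length, and whether strand was used in counting is not given.

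Snx10, a sorting nexin needed for ruffled border formation, resembled Slc4a2. In cKO OC, Snx10 was at 14.90, 14.91 and 14.78 from Ly6Chi cells, at 15.24, 15.31 and 15.38 from Ly6Cint cells and at 13.84, 13.88 and 13.97 from Ly6Cneg cells. Values of Snx10 in cKO BMM were 11.72, 11.77 and 11.83 in Ly6Chi, 11.87, 11.82 and 11.86 in Ly6Cint and 11.62, 11.91 and 11.49 in Ly6Cneg cells. The cKO OC and cKO BMM libraries did not overlap. In WT OC, Snx10 was at 15.27, 15.16 and 15.11 from Ly6Chi cells, at 14.66, 14.71 and 14.75 from Ly6Cint cells and at 12.40 and 12.45 from Ly6Cneg cells. Values of Snx10 in WT BMM were 11.92, 11.93 and 11.90 in Ly6Chi, 12.34, 12.35 and 12.35 in Ly6Cint and 11.58 and 11.61 in Ly6Cneg cells. Within a genotype and subset OC never overlapped BMM, and the WT Ly6Cneg groups stood closest. Differences were 3.09 ± 0.07 and 3.26 ± 0.07 in cKO and WT Ly6Chi cells, 3.46 ± 0.07 and 2.35 ± 0.07 in Ly6Cint cells, and 2.23 ± 0.07 and 0.83 ± 0.09 in Ly6Cneg cells, with adjusted p of at most 2.71e-09. Plekhm1, an adaptor for lysosome and ruffled border fusion, was higher in OC in all 3 cKO comparisons (0.66 to 1.72) and in WT Ly6Chi cells (0.46). It was lower in WT Ly6Cneg OC (-0.46, adjusted p 0.0229), a call lost without WT BMM Ly6Cneg replicate 2 or either WT OC Ly6Cneg library.

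The promoters of 26 of the 32 genes were found among RefSeq start sites (GRCm38.p6), as 37 windows of 300 bases, from 250 before to 50 after each start. They are shown because 5 of them, those of Atp6v0d1, Atp6v0e, Atp6v1a, Clcn6 and Clcn7, hold the letters TCACGTGA, the form of E-box bound by the Mitf, Tfeb and Tfe3 family, a letter string that reads the same on both strands and contains the shorter E-box CACGTG. Capitals mark the motif.
Atp6v1a: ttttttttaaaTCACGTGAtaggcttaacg
Clcn7: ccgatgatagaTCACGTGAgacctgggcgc
Atp6v0d1: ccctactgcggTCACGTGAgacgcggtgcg
Atp6v0e: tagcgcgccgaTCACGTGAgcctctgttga
Clcn6: cccggggccagTCACGTGAggcgcggatcc
Snx10: ccgccgcgcctTGAGTCAgcaaactccgc
These lie at chr16:44139373-44139402 (minus strand) for Atp6v1a, chr17:25133386-25133415 (plus) for Clcn7, chr8:105566050-105566079 (minus) for Atp6v0d1, chr17:26676387-26676416 (plus) for Atp6v0e, chr4:148038821-148038850 (minus) for Clcn6 and chr6:51523975-51524003 (plus) for Snx10. In Atp6v1a the motif runs from 132 to 125 bases before the start and in Clcn6 from 26 to 19 before it. In Atp6v0d1 it spans the start, and in Clcn7 and Atp6v0e it begins 7 and 3 bases after it.

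TCACGTGA was in 13.5% of the 37 windows and in 0.974% of all 32851 windows. CACGTG, searched on its own, was in 16.2% of the 37 and in 7.15% of all windows, with Atp6v0b as the additional gene. The AP-1 letters TGAGTCA, searched on both strands, were in the Snx10 window alone among the 37 (2.7%, against 5.2% of all windows). Atp6v0a2, Atp6v0d2, Atp6v1b2, Atp6v1c1, Atp6v1g1 and Atp6v1h had no window and were not searched. Among the genes searched, those with and without TCACGTGA both included large and small changes in culture. Of those with it, Clcn7 and Atp6v1a were called higher in all 6 comparisons, whereas Atp6v0d1 differed by at most 0.57 and Clcn6 was between -0.85 and 0.33. Mitf RNA was higher in OC in all 3 cKO subsets (0.79, 1.26 and 1.83 in Ly6Chi, Ly6Cint and Ly6Cneg cells) and in WT Ly6Cneg cells (0.78). In WT Ly6Chi cells Tfeb (-0.95) and Tfe3 (-1.11) were lower in OC.

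Several pump positions can be filled by alternative paralogs, so each pair was compared within a library. There a scaling factor of the library cancels if both genes lie well above the minimum. Atp6v0d2 minus Atp6v0d1 was positive in all OC groups, with means of 2.25 ± 0.14 in cKO and 2.23 ± 0.10 in WT OC Ly6Chi, 2.66 ± 0.07 and 2.21 ± 0.01 in Ly6Cint, and 1.75 ± 0.06 and 0.74 ± 0.09 in Ly6Cneg (SD, n = 3, or 2 for WT Ly6Cneg). It was negative in all BMM groups, with means of -3.03 ± 0.27 in cKO and -2.68 ± 0.18 in WT BMM Ly6Chi, -2.96 ± 0.39 and -3.73 ± 0.04 in Ly6Cint, and -1.58 ± 0.52 and -0.88 ± 0.08 in Ly6Cneg. No OC library fell below 0.68 and no BMM library rose above -0.82. The mean shift over the 6 pairs of groups was 4.45, from 1.62 to 5.94. Per kilobase of exon, d2 was at 14.10 in cKO and 14.17 in WT OC Ly6Chi, above d1 at 12.46 and 12.54, and at 8.56 in cKO and 8.69 in WT BMM Ly6Chi, below d1 at 12.19 and 11.98 (log2 level).

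Tcirg1 exceeded Atp6v0a1 and Atp6v0a2 in every library, and by more in OC. The mean shift between stages was 2.01 against Atp6v0a1 (0.32 to 3.43) and 1.23 against Atp6v0a2 (0.62 to 1.75). The smallest Tcirg1 shift against Atp6v0a1 was in cKO Ly6Cneg cells, at 1.96 ± 0.10 in OC and 1.64 ± 0.20 in BMM, where Atp6v0a1 had risen too. The low isoforms lost ground to their common paralogs: the mean shift was -0.95 for Atp6v0e2 against Atp6v0e, -2.31 for Atp6v1b1 against Atp6v1b2, -2.53 for Atp6v1c2 against Atp6v1c1 and -1.07 for Atp6v1g2 against Atp6v1g1. Since Atp6v1b1 and Atp6v1c2 are near the minimum, their shifts mainly measure the common paralog. The shifts nearest to 0 were -0.10 for the Atp6v0e2 pair and -0.03 for the Atp6v1g2 pair, both smaller than the spread between libraries. The adjusted p was 2e-05 for the Atp6v1g2 pair and 1.17e-05 for the others, whose unadjusted 1e-05 is the smallest that 100000 resamples allow (two-sided permutation test of stage labels within genotype and subset).

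**Figure D3:**
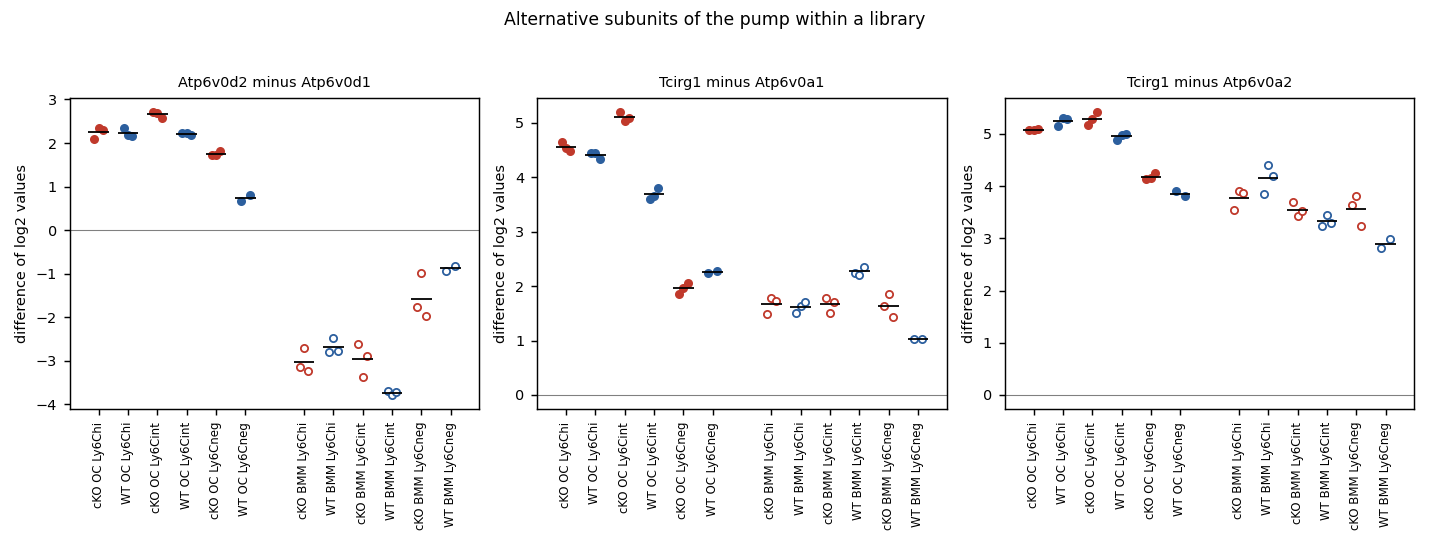
Within-library difference in log2 value for Atp6v0d2 minus Atp6v0d1, Tcirg1 minus Atp6v0a1 and Tcirg1 minus Atp6v0a2, one point per library with group means as black bars and a line at 0. The d2 pair lies above 0 in all OC libraries, at 0.68 or more, and below 0 in all BMM libraries, at -0.82 or less, while both Tcirg1 pairs lie above 0 throughout.

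The genotype comparison at day 0 asked how cKO and WT monocytes differed before RANKL. In Ly6Chi BMM 9 of the 32 genes were higher and 15 lower in cKO than in WT, in Ly6Cint BMM 10 were higher and 15 lower, and in Ly6Cneg BMM 8 were higher and 9 lower. Of all genes, 29.7%, 39.7% and 23.1% were called in these 3 comparisons, and 73.1%, 75% and 51.8% of genes averaging at least 9, so the share of the 32 genes called was near that of other expressed genes. The median of the 32 genes was -0.28, -0.12 and 0.06 in Ly6Chi, Ly6Cint and Ly6Cneg BMM, beside 0, 0.28 and 0.27 for all genes. With quantile normalization the Ly6Cint split became 12 higher and 11 lower, and with a fit to the compared libraries alone 13 genes were called in Ly6Chi and 8 in Ly6Cneg BMM. The chloride transport genes Clcn3, Clcn5, Clcn6 and Clcn7, and the Clcn7 partner Ostm1, were lower in cKO BMM in all 3 subsets. Atp6v0a1 and Atp6v0a2 were lower as well, in all 3. The stalk subunits Atp6v1c1, Atp6v1g1 and Atp6v1h and the accessory Atp6ap2 were higher in all 3. In Ly6Cneg BMM the calls of Clcn3, Clcn6, Ostm1, Atp6v1g1 and Atp6ap2 were lost without WT BMM Ly6Cneg replicate 2, and those of Clcn3, Clcn6 and Atp6v1g1 also without other single libraries (adjusted p over leave-one-out fits up to 0.201, 0.17, 0.0819, 0.149 and 0.0524), as was that of Ostm1 in Ly6Cint BMM without WT BMM Ly6Cint replicate 2 or cKO BMM Ly6Cint replicate 3.

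Clcn7 had the largest decrease in Ly6Chi and Ly6Cint cells, though not in Ly6Cneg cells: its values were -1.30 ± 0.08 in Ly6Chi, -1.80 ± 0.08 in Ly6Cint and -0.51 ± 0.09 in Ly6Cneg cells (adjusted p at most 2.42e-05), with no overlap between cKO and WT libraries in any subset. Tcirg1 was lower in cKO Ly6Chi (-0.84) and Ly6Cint cells (-1.08), and differed by -0.10 ± 0.06 in Ly6Cneg cells (adjusted p 0.265). Clcn5 was lower in cKO BMM of all 3 subsets, at -0.83, -0.79 and -1.44 in Ly6Chi, Ly6Cint and Ly6Cneg cells, the last being the largest decrease in that subset. The Clcn3 calls in Ly6Chi (-0.31) and Ly6Cneg cells (-0.39) did not hold when single libraries were left out; the Ly6Chi difference was between -0.44 and -0.15, nearest to 0 without WT BMM Ly6Chi replicate 1 or cKO BMM Ly6Chi replicate 3, and the Ly6Cneg one between -0.55 and -0.25, nearest to 0 without cKO BMM Ly6Cneg replicate 2.

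Slc9b2 and Atp6v0d2, the genes with the largest rise in culture, also differed before it. Slc9b2 was higher in cKO BMM by 0.77 ± 0.27 in Ly6Chi, 1.40 ± 0.27 in Ly6Cint and 1.17 ± 0.30 in Ly6Cneg cells (adjusted p 0.031, 0.000182 and 0.00637). The Ly6Cneg difference was 0.74 without cKO BMM Ly6Cneg replicate 2, the highest of its group at 9.96, and the Ly6Chi call was lost under quantile normalization and without any of 4 libraries (adjusted p up to 0.142). Atp6v0d2 was higher in cKO Ly6Cint BMM by 1.01 ± 0.19 (adjusted p 0.000155) and lower in cKO Ly6Cneg BMM (-0.67 ± 0.22, adjusted p 0.0273). The Ly6Cneg call of Atp6v0d2 was lost under quantile normalization and without either WT BMM Ly6Cneg library or cKO BMM Ly6Cneg replicate 1 or 3, and the difference was -0.41 without cKO BMM Ly6Cneg replicate 3.

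The day 0 populations also differed in markers of cell types. All 6 neutrophil markers were higher in cKO than in WT Ly6Chi and Ly6Cint BMM, and their mean per library was 14.98 to 16.44 in cKO and 11.65 to 12.01 in WT Ly6Chi BMM, 16.76 to 16.97 and 13.86 to 14.05 in Ly6Cint BMM, and 12.28 to 13.48 and 12.30 to 12.53 in Ly6Cneg BMM. The mean of 8 monocyte and macrophage markers was 12.66 to 12.72 in cKO and 14.04 to 14.15 in WT Ly6Chi BMM, 12.56 to 12.74 and 14.65 to 14.82 in Ly6Cint BMM, and 12.16 to 12.55 and 12.49 in Ly6Cneg BMM. Of the 8 osteoclast markers, 4, 7 and 5 were higher in cKO Ly6Chi, Ly6Cint and Ly6Cneg BMM and none lower, with means of 9.65 to 10.21 in cKO and 8.82 to 9.61 in WT Ly6Chi BMM, 9.89 to 10.61 and 8.97 to 9.12 in Ly6Cint BMM, and 9.67 to 11.27 and 9.05 to 9.27 in Ly6Cneg BMM. Stromal markers had a mean of 7.07 to 8.41 in cKO and 6.12 to 6.61 in WT Ly6Cneg BMM. Their part in the day 0 differences was not tested. None of the B cell, T cell, erythroid and kidney intercalated cell lists had a mean above 7.08 in any library; Foxi1, a defining gene of the intercalated cell, was not among the genes analysed here.

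In osteoclast cultures the counts of genes called between the genotypes differed by subset. Whether the genotype difference itself varied between subsets was not tested. From Ly6Chi cells, 1 gene was higher and 4 were lower in cKO OC than in WT OC, from Ly6Cint cells 20 were higher and 1 lower, and from Ly6Cneg cells 21 were higher and 0 lower. With quantile normalization these counts were 1 higher and 6 lower, 14 and 1, and 19 and 0, in the same order. With sample weights they were 1 and 11, 22 and 1, and 24 and 0. Of all genes 7.86%, 14.1% and 17.1% were called, with 8.18% higher in Ly6Cint and 9.53% higher in Ly6Cneg cultures, and of genes averaging at least 9, 19.8%, 38% and 44.6% were called. For genes averaging at least 9 the share called higher was not computed. Medians of the 32 genes were -0.16, 0.49 and 0.56, beside 0 for all genes in each comparison.

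**Figure D4:**
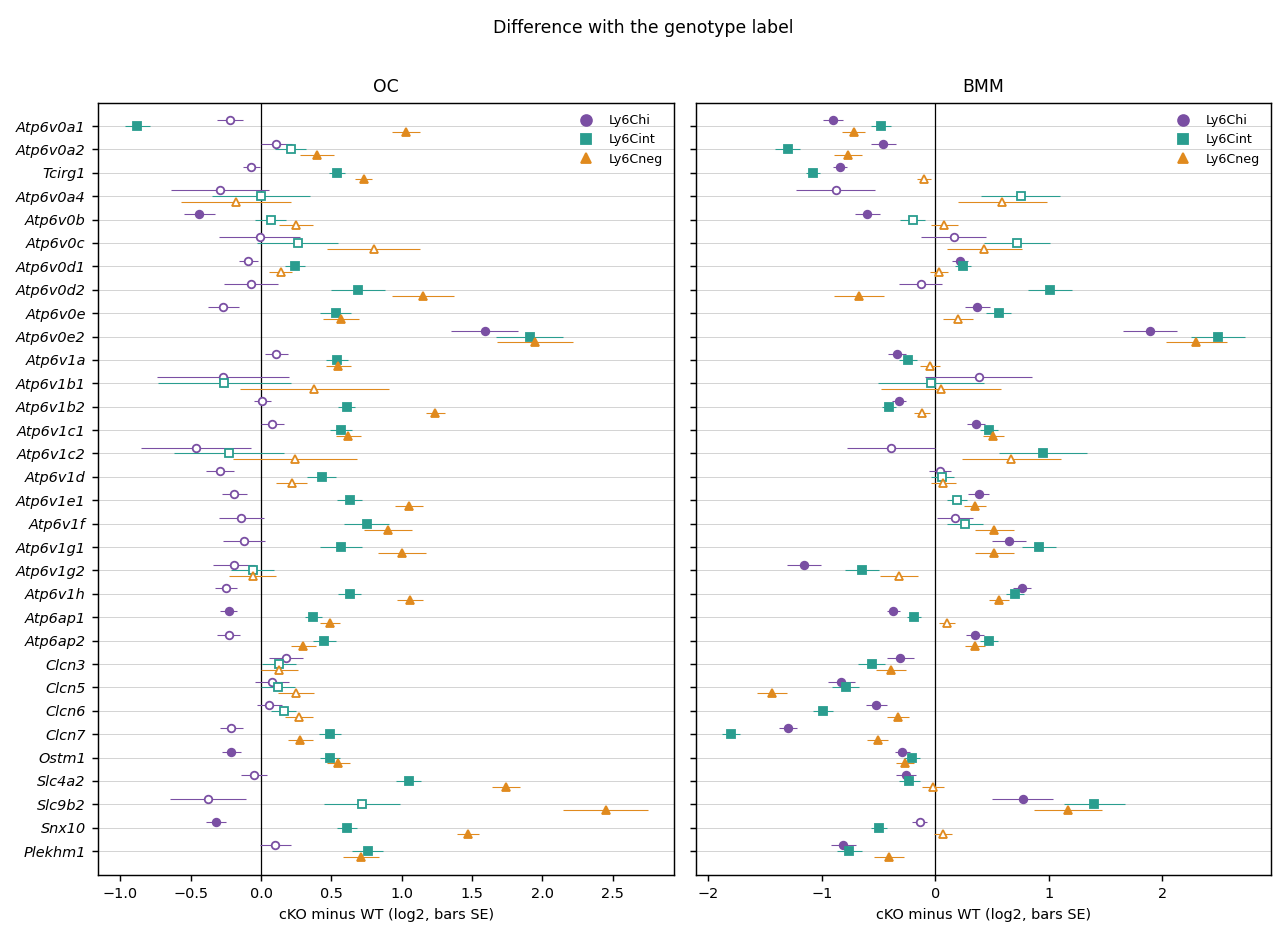
Difference in log2 value, cKO minus WT, with its standard error, for the 32 genes in OC (left panel) and BMM (right panel), colours and markers giving the subset and filled points those called. In OC the Ly6Cint and Ly6Cneg points lie mostly to the right of 0, up to 2.45 for Slc9b2, and in BMM Clcn7 lies farthest to the left, at -1.80.

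In Ly6Cneg cultures the largest differences, apart from Atp6v0e2, were in Slc9b2, Slc4a2, Snx10, Atp6v1b2 and Atp6v0d2. Slc9b2 stood at 13.53, 13.56 and 13.80 in cKO OC Ly6Cneg and at 11.09 and 11.28 in WT OC Ly6Cneg, a difference of 2.45 ± 0.30 (adjusted p 8.9e-07). Slc4a2 was higher in cKO by 1.74 ± 0.10, Snx10 by 1.47 ± 0.08, Atp6v1b2 by 1.24 ± 0.07 and Atp6v0d2 by 1.15 ± 0.22 (adjusted p at most 0.000266). The cKO and WT libraries did not overlap for any of these 5 genes, as was so for 42% of all genes. Tcirg1 was higher by 0.73 ± 0.06 and Clcn7 by 0.28 ± 0.09 (adjusted p 0.0188). The Clcn7 call was lost under quantile normalization, and without cKO OC Ly6Cneg replicate 3 or either WT library (adjusted p up to 0.19). Atp6v0a1 was higher in cKO by 1.03 ± 0.10 in these cultures and lower in cKO in Ly6Cint cultures (-0.88 ± 0.09).

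From Ly6Cint cells, Slc4a2 was higher in cKO OC than in WT OC by 1.05 ± 0.09, Plekhm1 by 0.76 ± 0.11, Atp6v1f by 0.75, Atp6v0d2 by 0.69 ± 0.19 and Tcirg1 by 0.54 ± 0.06. The Atp6v0d2 call was lost under quantile normalization. Slc9b2 was at 14.79, 14.80 and 14.83 in cKO OC Ly6Cint, above 14.03, 14.13 and 14.09 in WT OC Ly6Cint, but its difference of 0.72 ± 0.27 was not called (adjusted p 0.0821). From Ly6Chi cells, the lower genes were Atp6v0b (-0.44), Atp6ap1 (-0.23), Ostm1 (-0.21) and Snx10 (-0.32 ± 0.07, adjusted p 0.00286). Leaving out any 1 of the 6 libraries ended the Ostm1 call, and leaving out any of 3 ended the Atp6v0b call.

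Osteoclast markers differed most between the genotypes in Ly6Cneg cultures. In Ly6Cneg cultures all 8 were higher in cKO, with a mean of 14.45 to 14.74 per library in cKO OC and 11.94 to 12.12 in WT OC. In Ly6Cint cultures 2 of the 8 were higher (15.87 to 15.92 in cKO and 15.14 to 15.25 in WT OC), and in Ly6Chi cultures none was called (15.41 to 15.51 and 15.66 to 15.72). Stromal markers also differed in Ly6Cneg cultures, where their mean was 9.75 to 10.57 in cKO OC and 6.21 to 7.10 in WT OC, and Col1a1 averaged 13.06 ± 0.29 in cKO (SD, n = 3) and 7.89 ± 0.76 in WT (SD, n = 2). Neutrophil markers had a mean of 10.07 to 10.38 in cKO and 8.73 to 8.81 in WT OC Ly6Cneg, and of 10.43 to 10.99 and 7.88 to 8.18 in OC Ly6Cint. The part of these cells in the differences was not tested.

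Atp6v0e2 was the only one of the 32 genes called higher in cKO in all 6 genotype comparisons. In cKO OC, Atp6v0e2 was at 7.47, 7.36 and 7.37 from Ly6Chi cells, at 7.73, 7.64 and 7.65 from Ly6Cint cells and at 7.63, 7.65 and 7.48 from Ly6Cneg cells. Values of Atp6v0e2 in WT OC were 5.84, 5.70 and 5.89 in Ly6Chi, 6.01, 5.63 and 5.66 in Ly6Cint and 5.78 and 5.51 in Ly6Cneg cells. The cKO and WT libraries of OC did not overlap. In cKO BMM, Atp6v0e2 was at 7.56, 7.40 and 7.68 from Ly6Chi cells, at 7.48, 7.30 and 7.65 from Ly6Cint cells and at 7.72, 7.62 and 7.60 from Ly6Cneg cells. Values of Atp6v0e2 in WT BMM were 5.57, 5.87 and 5.55 in Ly6Chi, 5.32, 5.74 and 3.90 in Ly6Cint and 5.51 and 5.18 in Ly6Cneg cells. The BMM libraries did not overlap either. The difference was 1.59 ± 0.24 in OC and 1.89 ± 0.24 in BMM of Ly6Chi cells, 1.91 ± 0.24 and 2.49 ± 0.24 in Ly6Cint cells, and 1.95 ± 0.27 and 2.30 ± 0.27 in Ly6Cneg cells, with adjusted p of at most 7.97e-06. It was among the lowest of the 32 genes per kilobase, at 6.15 in cKO OC Ly6Chi and 4.56 in WT OC Ly6Chi on the log2 scale, and near the minimum, where differences are understated. The subset and the culture moved it little, and no call between subsets was made.

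A test of the difference itself asked whether the change in culture differed between cKO and WT cells. Its value is OC minus BMM in cKO cells minus the same in WT cells, so a positive value is a greater increase, a smaller decrease, or an increase in cKO beside a decrease in WT. These comparisons use the same libraries as the culture and genotype comparisons. In Ly6Chi cells 11 of the 32 genes had a positive and 7 a negative value, in Ly6Cint cells 16 and 1, and in Ly6Cneg cells 18 and 0. Of all genes, 23.8%, 26% and 17.3% were called, with 12.1%, 13% and 8.58% positive. The share among genes averaging at least 9, where most of the 32 lie, was not computed for this test. Whether the 32 genes were called more often than genes of like level was therefore not tested. Quantile normalization gave 13 positive and 5 negative in Ly6Cint and 13 positive and 0 negative in Ly6Cneg cells. A group of 9 genes was called with a positive value in all 3 subsets: Atp6v0a2, Plekhm1, Clcn7, Atp6v1b2, Clcn5, Tcirg1, Atp6v1a, Clcn6 and Clcn3. The value of Clcn7 was 1.09 ± 0.11, 2.29 ± 0.11 and 0.79 ± 0.12 in Ly6Chi, Ly6Cint and Ly6Cneg cells, the largest positive value of the 32 genes in Ly6Chi and Ly6Cint cells. For some of the 9 the 2 genotypes moved in opposite directions: OC minus BMM was 0.39 in cKO and -1.30 in WT Ly6Cneg cells for Clcn5, and 0.29 in cKO and -0.85 in WT Ly6Cint cells for Clcn6. The Clcn3 calls in Ly6Chi cells (0.49) and Ly6Cneg cells (0.52) were lost without any of 5 of 12 and any of 9 of 10 libraries, with adjusted p up to 0.149 and 0.159. Atp6v0a1 had a positive value in Ly6Chi cells (0.68) through a smaller decrease, -0.52 in cKO and -1.20 in WT.

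For Clcn7 and Tcirg1 the greater increase in cKO Ly6Chi cells stood beside lower values in cKO BMM rather than higher values in cKO OC: Clcn7 was at 14.86, 14.99 and 14.90 in cKO OC and 15.14, 15.08 and 15.15 in WT OC, and at 11.43, 11.37 and 11.37 in cKO BMM and 12.81, 12.60 and 12.65 in WT BMM. In Ly6Cneg cells Atp6v0d2 (1.82 ± 0.31, adjusted p 0.000101), Slc4a2 (1.77 ± 0.14), Atp6v0a1 (1.74 ± 0.14), Clcn5 (1.69 ± 0.19) and Snx10 (1.40 ± 0.12) differed most. Slc4a2 and Snx10 differed between cKO and WT BMM Ly6Cneg by -0.02 ± 0.10 and 0.07 ± 0.08, neither called, whereas Atp6v0d2 and Atp6v0a1 were lower in cKO BMM and higher in cKO OC. Slc9b2 changed less in cKO than in WT Ly6Chi cells (-1.15 ± 0.38, adjusted p 0.0275) and more in Ly6Cneg cells (1.28 ± 0.42, adjusted p 0.04); both calls were lost in several of the fits that left out a library, with adjusted p up to 0.0842 and 0.13.

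Between Ly6C subsets, OC of Ly6Cneg origin had lower levels of most of the 32 genes. Against Ly6Chi OC of the same genotype, 5 genes were higher and 20 lower in cKO, and 2 higher and 22 lower in WT, while 23.5% and 19% of all genes were called, 9.08% and 8.12% of all as lower. Against Ly6Cint OC, 4 were higher and 21 lower in cKO and 2 higher and 22 lower in WT, with 24.7% and 13.6% of all genes called, 10.7% and 5.44% of all as lower. For comparisons between subsets, in OC and in BMM, the share among genes averaging at least 9 was not computed. The median difference of Ly6Cneg from Ly6Chi OC was -0.56 in cKO and -1.36 in WT cells, beside 0.17 and 0.20 for all genes. In WT OC the difference was -3.42 ± 0.30 for Slc9b2, -2.76 ± 0.08 for Snx10, -2.73 ± 0.10 for Slc4a2, -2.11 ± 0.07 for Atp6v1b2 and -2.09 ± 0.22 for Atp6v0d2 (adjusted p at most 4.82e-08). In cKO OC it was -1.19 ± 0.10 for Atp6v1d, -1.10 ± 0.08 for Clcn7, -0.97 ± 0.07 for Snx10 and -0.87 ± 0.19 for Atp6v0d2, and for Slc9b2 it was -0.59 ± 0.27 (adjusted p 0.124). The largest difference in cKO OC was an increase, 2.04 ± 0.09 for Atp6v0a1, which was also higher in WT OC (0.79 ± 0.10). Osteoclast markers were lower in Ly6Cneg than in Ly6Chi OC, 4 of the 8 in cKO and all 8 in WT. Other lineages moved the other way. All 8 monocyte and macrophage markers were higher in Ly6Cneg than in Ly6Chi OC in cKO and 7 of the 8 in WT, with means of 12.40 to 12.50 and 10.89 to 11.02 in cKO, and 12.56 to 12.67 and 11.44 to 11.58 in WT. Neutrophil markers had means of 10.07 to 10.38 in Ly6Cneg and 7.91 to 8.87 in Ly6Chi OC in cKO, and of 8.73 to 8.81 and 7.74 to 8.20 in WT. Stromal markers had means of 9.75 to 10.57 in Ly6Cneg and 4.36 to 5.56 in Ly6Chi OC in cKO, and of 6.21 to 7.10 and 5.12 to 5.28 in WT. The part of these cells in the subset differences was not tested.

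**Figure D5:**
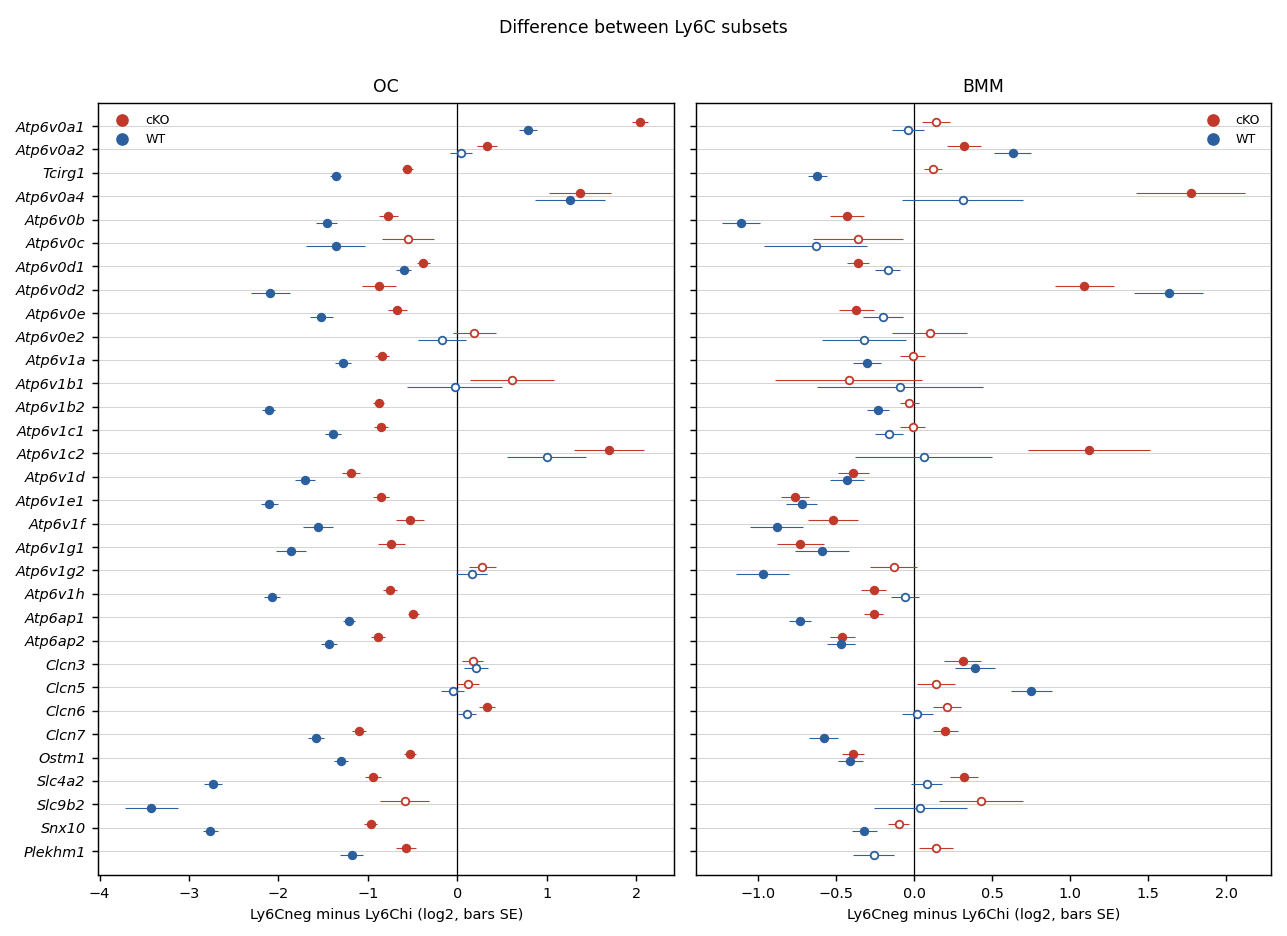
Difference in log2 value, Ly6Cneg minus Ly6Chi, with its standard error, for the 32 genes in OC (left panel) and BMM (right panel), for cKO and WT cells, with filled points called. Most OC points lie to the left of 0, down to -3.42 for Slc9b2 in WT cells, and in BMM the points lie on both sides of 0, with Atp6v0d2 at 1.09 in cKO and 1.63 in WT.

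Ly6Cint and Ly6Chi OC differed less, and in opposite directions by genotype. Ly6Cint OC had 9 genes higher and 1 lower in cKO (5.27% of all genes called), and 1 higher and 17 lower in WT (2.9% of all genes called). The cKO count depended on the processing: quantile normalization left 2 higher and 1 lower, and a fit without the variance prior called 3. Under quantile normalization the WT count was 11 genes. Snx10 showed both directions, with Ly6Cint OC higher by 0.45 ± 0.07 in cKO (adjusted p 3.93e-05) and lower in WT (-0.48 ± 0.07, adjusted p 3.15e-05). Tcirg1, higher by 0.26 ± 0.06 in cKO Ly6Cint OC, was at -0.02 under quantile normalization.

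At day 0, Ly6Cint cKO BMM differed from Ly6Chi cKO BMM in 3 of the 32 genes, all lower (Atp6v1a at -0.31, Atp6v1h at -0.29 and Atp6v1c1 at -0.28), with 6.83% of all genes called. In WT, Ly6Cint BMM had 4 genes higher and 8 lower than Ly6Chi BMM (15.6% of all genes). Ly6Cneg BMM had 7 genes higher and 11 lower than Ly6Chi in cKO (27% of all genes) and 4 higher and 14 lower in WT (20.6%), and 8 higher and 10 lower than Ly6Cint in cKO (27.5%) and 4 higher and 14 lower in WT (23%). Quantile normalization turned the balance in cKO, to 10 higher and 4 lower against Ly6Chi and 12 higher and 5 lower against Ly6Cint, and gave 8 higher and 7 lower in WT against Ly6Cint and 3 higher and 13 lower for WT Ly6Cint against Ly6Chi. Atp6v0d2 went against its direction in OC: Ly6Cneg BMM exceeded Ly6Chi BMM by 1.09 ± 0.19 in cKO and 1.63 ± 0.22 in WT, and exceeded Ly6Cint BMM by 1.10 ± 0.19 in cKO and 2.78 ± 0.22 in WT (adjusted p at most 0.000181).

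Other genes of the acid pathway were followed as lists. Car2 was higher in OC in all 6 comparisons, by 5.66 ± 0.24 and 5.62 ± 0.24 in cKO and WT Ly6Chi cells, 5.66 ± 0.24 and 5.36 ± 0.24 in Ly6Cint cells, and 3.95 ± 0.24 and 2.74 ± 0.29 in Ly6Cneg cells, and it was higher in cKO than in WT OC by 2.21 ± 0.27 in Ly6Cneg and 1.08 ± 0.24 in Ly6Cint cultures. Among 13 genes of pH and bicarbonate, Car2 included, 7 were higher and 3 lower in cKO Ly6Chi cultures and 4 and 4 in WT Ly6Chi, 8 and 4 and 4 and 1 in Ly6Cint, and 6 and 2 and 3 and 2 in Ly6Cneg. Of all genes, 41.8% in cKO and 34.1% in WT were called in Ly6Chi, 48.7% and 28.4% in Ly6Cint, and 42.6% and 12.2% in Ly6Cneg. Of genes averaging at least 9 it was 75.4% and 69.8%, 77.8% and 68.1%, and 70.2% and 33.4%. The counts are description only. The sodium-bicarbonate carrier Slc4a7 was higher in OC in all 6 (1.49 to 2.28), and the endosomal sodium-proton exchanger Slc9a9 was lower in 5, with -4.31 in WT Ly6Chi cells.

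Among 12 genes of pump assembly and regulation, 7 were higher and 2 lower in cKO Ly6Chi OC and 8 and 3 in WT Ly6Chi OC, 8 and 3 and 7 and 3 in Ly6Cint, and 8 and 2 and 4 and 0 in Ly6Cneg. The subunits of the complex that reassembles V1 on V0 did not move together. Dmxl1 and Wdr7 were higher in OC by 0.85 to 3.12 in 5 comparisons and by 0.56 to 2.10 in all 6. Rogdi was lower in OC in 5 comparisons (-0.80 to -1.83). Dmxl2 was lower in WT Ly6Chi (-1.33), cKO Ly6Cint (-0.70) and WT Ly6Cint cells (-1.02) and higher in cKO and WT Ly6Cneg cells (1.73 and 1.01). Among 13 genes of ruffled border traffic and lysosome regulation, 6 were higher and 6 lower in cKO Ly6Chi OC and 1 and 7 in WT Ly6Chi OC, 5 and 6 and 1 and 6 in Ly6Cint, and 8 and 3 and 3 and 3 in Ly6Cneg. The shares of all genes called, given with the pH and bicarbonate list, hold for these lists too, and their counts are also description only. Rab27a, a GTPase of secretory lysosomes, was lower in OC in all 6 comparisons (-1.30 to -4.33). Of 6 pump genes known from other tissues, such as the gastric Atp4a and Atp4b, 5 could be tested and none was higher in OC in any comparison.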

How the data were processed

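Total RNA was sequenced from the groups given above; 34 libraries had a column in the deposited table, and the 2 further samples of the labels were not analysed here. The authors' values are deposited as normalised expression on a log2 scale, with a lowest value of 3.90; the transform is not stated, whole reads were not recovered, and total reads per library are unknown, so no count test or counting interval was used. Relative depth, read from the steps of low values, ran from 0.573 to 1.42. Genome build mm10 and the tools DESeq2, HISAT2, deepTools, bcl2fastq 2.17.1 and CASAVA 1.8.4 come from the submitters' processing notes; how reads were counted, and whether by strand, is not given in the sources used here.

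Genes above 4.78 (the 5th percentile of values over the minimum) in at least 3 libraries were tested, 38873 of 38942, which kept all 32 genes; 28 of the 32 were above it in every library. The 12 group means were fitted in a linear model with limma 3.58.1 in R 4.3.3 (trended and robust empirical Bayes, 22 residual degrees of freedom), for 27 comparisons, with Benjamini-Hochberg adjustment within each comparison over all genes tested and a threshold of 0.05. SE is the standard error of the fitted difference. Nothing in the labels ties replicates to separate animals, so p-values reflect only how these libraries vary, which may be technical variation. Differences of genes near the minimum are understated. Paralog pairs were tested by permutation in NumPy 2.4.6 and Python 3.11.15. On simulated data with shifts of 0.5, 1 and 2 added to known genes, the fit recovered 85.1%, 89.6% and 98.5% in the cKO Ly6Chi and 58.2%, 86.6% and 98.5% in the WT Ly6Cneg culture comparison, among 38873 genes. Unchanged genes were called too, 11 and 7 in these comparisons. Only 66 or 67 genes were shifted per size, all averaging at least 9, with independent normal noise. Far more genes were called in the data, so these shares are not the power for the 32 genes, least of all the low ones.

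The genes, lists and tests were chosen with earlier results of these data known. Values in every library were given for Atp6v0d2, Atp6v0d1, Tcirg1, the members with the 8 largest median culture differences and those with the 4 largest genotype differences; further genes were named after their values were seen. Levels per kilobase are the log2 value minus log2 of exon length. Exons of 10 of the 32 genes overlap another gene, 7 of them over at least 5% of their length (Slc4a2, Atp6v0b, Atp6v0a2, Atp6v1g2, Ostm1, Plekhm1 and Atp6v0a4), so their reads can be shared. Alternatives were other filters, median and quantile normalization, other variance settings, sample weights, fits to the compared libraries alone, and leaving out each library.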

Additional observations from a re-analysis of the deposited data

Results flagged for a closer look

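The values here are the change in culture (OC minus BMM) in cKO cells minus that in WT cells, on the log2 scale, for genes where a test of that difference passed (limma, adjusted p under 0.05). A positive value is a greater increase, a smaller decrease, or an increase in cKO beside a decrease in WT.

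In Ly6Chi cells the V0 genes had values of 0.68 for Atp6v0a1, 0.57 for Atp6v0a2, 0.78 for Tcirg1, -0.30 for Atp6v0d1 and -0.64 for Atp6v0e. The V1 genes had 0.45 for Atp6v1a, 0.33 for Atp6v1b2, -0.57 for Atp6v1e1, -0.77 for Atp6v1g1, 0.98 for Atp6v1g2 and -1.01 for Atp6v1h, and the accessory Atp6ap2 had -0.58. Among chloride exchangers the values were 0.49 for Clcn3, 0.91 for Clcn5, 0.58 for Clcn6 and 1.09 for Clcn7. Slc9b2 was at -1.15 and Plekhm1 at 0.91.

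In Ly6Cint cells the V0 genes had values of -0.39 for Atp6v0a1, 1.51 for Atp6v0a2 and 1.63 for Tcirg1. The V1 and accessory genes had 0.77 for Atp6v1a, 1.02 for Atp6v1b2, 0.37 for Atp6v1d, 0.44 for Atp6v1e1, 0.59 for Atp6v1g2 and 0.56 for Atp6ap1. Among chloride exchangers the values were 0.68 for Clcn3, 0.91 for Clcn5, 1.15 for Clcn6, 2.29 for Clcn7 and 0.71 for Ostm1. Slc4a2 was at 1.29, Snx10 at 1.11 and Plekhm1 at 1.52.

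In Ly6Cneg cells the V0 genes had values of 1.74 for Atp6v0a1, 1.17 for Atp6v0a2, 0.83 for Tcirg1 and 1.82 for Atp6v0d2. The V1 and accessory genes had 0.61 for Atp6v1a, 1.36 for Atp6v1b2, 0.71 for Atp6v1e1, 0.51 for Atp6v1h and 0.38 for Atp6ap1. Among chloride exchangers the values were 0.52 for Clcn3, 1.69 for Clcn5, 0.60 for Clcn6, 0.79 for Clcn7 and 0.83 for Ostm1. Slc4a2 was at 1.77, Slc9b2 at 1.28, Snx10 at 1.40 and Plekhm1 at 1.12. The small Clcn3 values in Ly6Chi and Ly6Cneg cells, and that of Atp6v1d in Ly6Cint cells, did not keep their call when single libraries were left out. The larger Slc9b2 values in Ly6Chi and Ly6Cneg cells also lost their call in several of those fits.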

How the results depend on the processing

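The counts of genes called in the 6 culture and 3 genotype-by-culture comparisons stayed within 1.5 times their value under every alternative run. Of the 12 genes given in every library, 3 values turned, all under quantile normalization: Atp6v0d1 in WT BMM Ly6Cneg minus Ly6Cint was 0.23 (adjusted p 0.0327), Atp6v1b2 in the same comparison was 0.09 (0.556), and Tcirg1 in cKO OC Ly6Cint minus Ly6Chi was -0.02 (0.988); the cause was not tested. Quantile normalization also moved the median of all genes in culture comparisons, to 0.01 in cKO Ly6Chi cells, where it was -0.27. For cKO minus WT in OC Ly6Chi, 5 genes were called, against 12 with sample weights, 3 with the compared libraries alone and 3 to 8 when a library was left out. For BMM Ly6Chi it was 24, against 13 with the compared libraries alone, and for BMM Ly6Cneg 17, against 8 with the compared libraries alone and 8 to 17 when a library was left out (8 without WT BMM Ly6Cneg replicate 2). For Ly6Cint minus Ly6Chi in cKO OC it was 10, against 3 with quantile normalization, 3 without the trended and robust prior, 17 with sample weights, 4 with the compared libraries alone and 3 to 10 when a library was left out. In cKO BMM the same contrast called 3, against 1 with quantile normalization, 1 without that prior, 1 with sample weights, 0 with the compared libraries alone and 0 to 5 when a library was left out. For Ly6Cneg in cKO BMM, 18 were called against Ly6Chi (10 with sample weights, 4 with the compared libraries alone) and 18 against Ly6Cint (5 with the compared libraries alone). For Ly6Cint minus Ly6Chi in WT, 18 were called in OC (11 with quantile normalization) and 12 in BMM (21 with sample weights). Fits to the compared libraries alone rest on fewer samples. All 7 mean paralog shifts kept their sign and call. Leaving out a WT Ly6Cneg library leaves 1, assumed to vary like the other groups. No paired analysis was possible because the numbers in the titles are serial numbers that the groups compared do not share. Total reads per library are unknown, so no detection limit can be set for genes near the minimum of 3.90.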
